A study of Mus musculus with 2 samples.

Results

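The genes described here are 55 genes of the cell division cycle and of DNA replication, from 12393 genes that had a probe set of their own. They were listed by name, but with earlier results of these data known. Together 101 probe sets carried the name of 1 of them and of no other gene, and gave a value for 54 of the 55 genes; Ccnb1 was not analysed here. For a gene with more than 1 probe set, the brightest (by mean log2 signal over both arrays) was used. The cells came from the small intestinal lamina propria of C57BL/6 mice aged 8 weeks and were labelled unstimulated. Eosinophils (CD11b+, CD11c intermediate, MHCII-, SiglecF+) and dendritic cells (CD11c+MHCII+) were sorted by flow cytometry, and the RNA of each population was hybridised to 1 expression array. The sources used here do not say how many mice gave cells. With 1 array for each population there was no replicate error and no test was made, so each difference below describes this pair of arrays.

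Cells enter division when D-type cyclins with Cdk4 or Cdk6, and then cyclin E with Cdk2, phosphorylate the retinoblastoma protein and free E2F transcription factors, which switch on the genes of DNA synthesis. Replication origins are licensed by loading the MCM helicase, forks copy the DNA, and cyclin B with Cdk1 then drives mitosis under the spindle checkpoint. Mature eosinophils are known as granulocytes that have left the cell cycle, whereas a minority of tissue dendritic cells and their immediate precursors are known to divide. In a sorted population, fewer cells that express a gene and less RNA in each cell cannot be told apart.

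Signals are linear MAS5 intensities. Signals below a floor of 134.7 units, the median over both arrays pooled, were raised to it. A fold change for which 1 population was below the floor is therefore a minimum and is written "at least". The 95th percentile of 45 genes of other tissues (lens, germ cells, brain, liver and others) was 204.1 units, so a signal between 134.7 and 204.1 units on either array may be background. Each "at least" value holds for the floor of 134.7 units, and with a floor of 204.1 units it is smaller or missing. Both arrays had a trimmed mean signal of 499.9 units. Over 18 probe sets of hybridisation spike controls, the median signal ratio of eosinophils to dendritic cells was 2.06. The ratio of 3' to 5' probe sets was 6.38 in eosinophils and 9.0 in dendritic cells for actin, and 9.81 in eosinophils and 6.58 in dendritic cells for Gapdh. The 6 eosinophil markers summed to 34789 units in eosinophils and 658 in dendritic cells, and the 9 dendritic cell markers to 2016 in eosinophils and 134698 in dendritic cells. Of the sort markers, Siglecf gave 6977 units in eosinophils against 112 units in dendritic cells, and H2-Aa gave 155 units in eosinophils and 34015 in dendritic cells. Itgax, which encodes CD11c, gave 4846 units in eosinophils and 5994 in dendritic cells, Itgam, the CD11b gene, gave 227 units in eosinophils and 87.1 in dendritic cells, and H2-Eb1 gave 247 units in eosinophils and 41365 in dendritic cells.

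Of the 19 measured genes of DNA synthesis in the set, 15 were brighter in dendritic cells, whereas 9 of 25 other measured replication genes were. On the spike scale, with arrays centred on spike controls, the counts lay close together, at 18 of 20 synthesis genes and 24 of 28 others. With the second brightest probe set they were 6 of 10 synthesis genes and 0 of 10 others. The genes that govern G1 were split, with the retinoblastoma gene Rb1, cyclin D2 and the inhibitor Cdkn2d brighter in eosinophils and cyclin D1 and the inhibitor Cdkn1a brighter in dendritic cells. Of the 54 genes, 30 (55.6%) reached the floor on the eosinophil array and 39 (72.2%) on the dendritic cell array, beside 56.7% of all genes in eosinophils and 51.3% in dendritic cells. Of these, 25 were above it on both arrays, 5 in eosinophils only and 14 in dendritic cells only. The other 10, namely Cdk6, Ccne2, Rfc3, Tyms, Rrm1, Ccnb2, Plk1, Aurkb, Cdc20 and Bub1b, lay under the floor on both arrays, with signals between 3.51 and 134.6 units, and have no fold change. Of all 12393 genes, 5389 were above the floor on both arrays, 1632 in eosinophils only, 973 in dendritic cells only and 4399 on neither. Of the 44 measured genes, 16 were brighter in eosinophils and 28 in dendritic cells, where 42.6% of all 7994 measured genes were brighter in dendritic cells. At 4-fold or more, 4 were brighter in eosinophils (Rb1, Cdkn2d, Gmnn and Ccnd2) and 4 in dendritic cells (Ccnd1, Rrm2, Top2a and Cdkn1a), that is 9.09% on either side, beside a background of 5.35% in eosinophils and 5.35% in dendritic cells. At 2-fold or more, 8 (18.2%) were brighter in eosinophils, beside 19% of all measured genes, and 12 (27.3%) in dendritic cells, beside 15.5%. The median log2 difference of the 44 genes, eosinophils minus dendritic cells, was -0.48, and that of all measured genes was 0.16. Under the 11 other settings for floor, scaling and probe set choice the median stayed below that of all genes, by 0.23 to 0.70 on the log2 scale in size, and the counts at 4-fold ranged from 1 to 4 in eosinophils and from 0 to 10 in dendritic cells. Over all measured genes (2875 to 11188 of them) these counts ranged from 123 to 844 in eosinophils and from 139 to 1153 in dendritic cells. With the mean of all probe sets none of the cell cycle genes brighter in dendritic cells passed 4-fold. On the scale of the spike controls Rb1 was the only one of the 4 brighter in eosinophils that did.

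**Figure D1:**
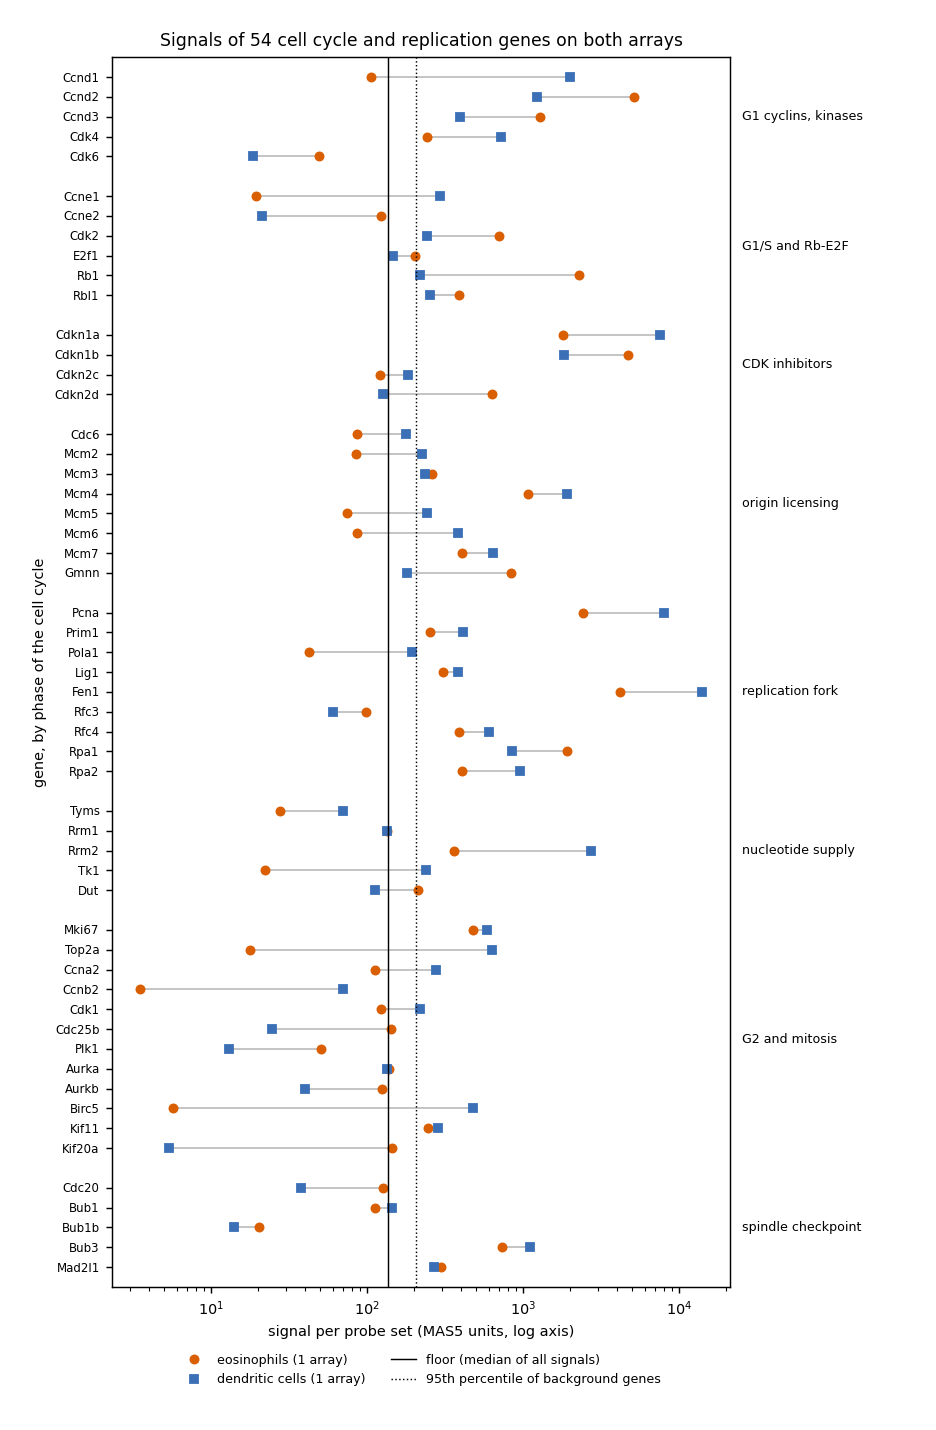
Signal of the probe set that stands for each of the 54 genes (horizontal log axis, MAS5 units) on the eosinophil array (circles) and the dendritic cell array (squares), 1 array each, by phase. The solid line is the floor of 134.7 units and the dotted line the 95th percentile of background genes at 204.1 units; 8 genes reach the floor on at least 1 array but nowhere pass the dotted line.

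E2F and its partner complexes act on sequences upstream of transcription starts. Cdk2, 2.91-fold apart, was picked by hand. Its upstream stretch is shown with those of the genes at least 4-fold apart whose start was in the RefSeq table used (GRCm38.p6). Each runs 5′ to 3′ on the gene's strand and covers the 250 bases before the start; where a gene had several starts the most upstream one was taken. Capitals mark matches, on either strand, to the E2F letters TTCCCGC or TTCGCGC or TTGCCGC or TTGGCGC, to the cell cycle homology region (CHR) letters TTTGAA or TTCGAA, and to the CCAAT box, which reads ATTGG on the other strand. Rrm2 lies at chr12:24708004-24708253 (plus strand) and Top2a at chr11:99024190-99024439 (minus strand), and both genes were brighter in dendritic cells.
Rrm2: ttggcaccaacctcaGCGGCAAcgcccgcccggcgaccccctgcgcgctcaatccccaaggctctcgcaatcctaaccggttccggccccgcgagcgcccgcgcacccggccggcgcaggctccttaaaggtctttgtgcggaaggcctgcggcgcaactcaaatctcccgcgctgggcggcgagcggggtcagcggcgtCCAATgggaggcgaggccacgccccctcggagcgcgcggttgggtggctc
Top2a: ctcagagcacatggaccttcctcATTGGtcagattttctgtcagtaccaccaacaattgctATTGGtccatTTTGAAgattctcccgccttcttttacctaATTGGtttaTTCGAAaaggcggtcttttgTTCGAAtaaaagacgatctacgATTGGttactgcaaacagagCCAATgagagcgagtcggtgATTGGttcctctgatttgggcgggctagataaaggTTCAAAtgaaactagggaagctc
Cdkn1a lies at chr17:29090729-29090978 (plus strand) and was also brighter in dendritic cells. This gene had 2 starts, and the stretch before the less upstream one is not shown.
Cdkn1a: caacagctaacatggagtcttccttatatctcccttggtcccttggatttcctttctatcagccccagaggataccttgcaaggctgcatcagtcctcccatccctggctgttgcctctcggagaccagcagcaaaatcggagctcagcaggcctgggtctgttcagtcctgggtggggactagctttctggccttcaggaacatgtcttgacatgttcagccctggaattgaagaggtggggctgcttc
Cdkn2d lies at chr9:21291210-21291459 (minus strand) and Cdk2 at chr10:128705052-128705301 (minus strand), and both were brighter in eosinophils.
Cdkn2d: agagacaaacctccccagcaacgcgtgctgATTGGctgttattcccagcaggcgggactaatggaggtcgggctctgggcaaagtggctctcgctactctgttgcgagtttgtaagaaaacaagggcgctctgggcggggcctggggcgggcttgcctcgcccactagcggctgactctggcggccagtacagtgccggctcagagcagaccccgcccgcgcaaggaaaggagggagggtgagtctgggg
Cdk2: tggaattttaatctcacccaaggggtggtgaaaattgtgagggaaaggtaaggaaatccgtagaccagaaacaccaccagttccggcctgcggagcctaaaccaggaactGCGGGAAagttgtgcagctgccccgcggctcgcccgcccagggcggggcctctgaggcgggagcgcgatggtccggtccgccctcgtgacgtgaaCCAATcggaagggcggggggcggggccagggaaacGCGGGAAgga
The Top2a stretch held 4 CHR matches and 6 CCAAT matches, and the Rrm2 stretch 1 E2F and 1 CCAAT match. The Cdk2 stretch held 2 E2F matches and 1 CCAAT match, Cdkn2d held 1 CCAAT match, and none of these letters was found in the Cdkn1a stretch. Birc5, Fen1, Pcna, Ccnd3 and Cdk4 lay further apart than Cdk2 and had no E2F match in their stretches, which are not shown. A promoter was matched for 46 of the 55 genes. An E2F match was present in 50% of 20 promoters of synthesis genes, 20.0% of 15 of mitotic genes and 27.3% of 11 of G1 genes, beside 8.03% of 27025 genes in all. A CHR match was present in 53.3% of the mitotic promoters, 20.0% of the synthesis promoters and 0 of 11 G1 promoters, beside 17.5% of all genes. CCAAT boxes were found in 86.7% of the mitotic, 65.0% of the synthesis and 27.3% of the G1 promoters, beside 34.5% of all genes. The GC box letters GGGCGG, not marked above, were in 81.8% of the G1, 73.3% of the mitotic and 60.0% of the synthesis promoters, beside 33.0% of all genes. The part of base composition in the E2F shares was not tested. These matches describe letters in a window and not binding.

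The D-type cyclins, which start the passage through G1, split between the populations. Cyclin D1 (Ccnd1) gave 106 units in eosinophils against 2001 units in dendritic cells, at least 14.8-fold brighter there. That size rests on 1 of its 3 probe sets: the other 2 gave 160 and 157 units in dendritic cells, within the range of background, and differed by -0.25 and -0.22 on the log2 scale. Cyclin D2 (Ccnd2) gave 5153 units in eosinophils against 1220 units in dendritic cells, 4.22-fold brighter in eosinophils, and all 7 of its probe sets lay on that side, by 0.29 to 2.26 on the log2 scale. Cyclin D3 (Ccnd3) gave 1282 units in eosinophils and 394 in dendritic cells, 3.25-fold brighter in eosinophils. The log2 differences of Ccnd2 and Ccnd1 lay at least 5.97 apart. Of the kinases that pair with D cyclins, Cdk4 gave 241 units in eosinophils against 719 units in dendritic cells, 2.98-fold brighter in dendritic cells on a probe set with the suffix x, a type whose probes can match other transcripts. Its other probe sets stood 2.73-fold and, for the one without a suffix, 1.46-fold apart on the same side. Cdk6 did not reach the floor on either array, at 48.7 units in eosinophils and 18.6 in dendritic cells.

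Of the genes of the G1/S switch, 4 of the 5 measured were brighter in eosinophils, and 2 of 5 when the arrays were centred on spike controls. Over all measured genes, 4592 of 7994 were brighter in eosinophils as reported. Rb1, the retinoblastoma protein that holds E2F in check, gave 2258 units in eosinophils against 219 units in dendritic cells, 10.3-fold brighter in eosinophils on its single probe set. It was past 4-fold under each of the 10 alternatives that gave it a value. Its relative Rbl1, the pocket protein p107, gave 386 units in eosinophils and 253 in dendritic cells, 1.53-fold brighter in eosinophils, and turned to the dendritic cell side on the spike scale. Cdk2, the kinase of cyclins E and A, gave 697 units in eosinophils and 240 in dendritic cells, 2.91-fold brighter in eosinophils. E2f1, the E2F activator that Rb1 binds, gave 203 units in eosinophils and 145 in dendritic cells, both within the range of background, 1.40-fold apart. Cyclin E1 (Ccne1) was the exception, with 19.3 units in eosinophils against 290 units in dendritic cells, at least 2.16-fold brighter in dendritic cells. Cyclin E2 (Ccne2) gave 123 units in eosinophils and 21.0 in dendritic cells, under the floor on both.

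The inhibitors of cyclin-dependent kinases also split. Cdkn1a, the p53-induced inhibitor p21, gave 1788 units in eosinophils against 7492 units in dendritic cells, 4.19-fold brighter in dendritic cells, and its second probe set stood 3.49-fold apart on the same side. Cdkn1b, the inhibitor p27 associated with quiescence, gave 4659 units in eosinophils and 1814 in dendritic cells, 2.57-fold brighter in eosinophils, and the other probe set gave 1.72 (log2). The INK4 inhibitor Cdkn2d, which blocks Cdk4 and Cdk6, gave 628 units in eosinophils against 127 units in dendritic cells, at least 4.66-fold brighter in eosinophils. The related Cdkn2c gave 120 units in eosinophils and 182 in dendritic cells, at least 1.35-fold brighter in dendritic cells but within the range of background. The log2 differences of Cdkn1b and Cdkn1a lay 3.43 apart, and those of Cdkn2d and Cdkn1a at least 4.29 apart.

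Most licensing genes, which load and limit the replicative helicase, were brighter in dendritic cells. All 8 reached the floor in dendritic cells and 4 did in eosinophils, and the median log2 difference of the 8 was -0.69. The helicase subunits Mcm6 (86.4 units in eosinophils, 379 units in dendritic cells), Mcm5 (74.4 units in eosinophils and 242 in dendritic cells) and Mcm2 (84.1 units in eosinophils and 224 in dendritic cells) were brighter in dendritic cells by at least 2.81-fold, 1.79-fold and 1.66-fold. Mcm4 gave 1066 units in eosinophils and 1913 in dendritic cells (1.79-fold) and Mcm7 gave 406 units in eosinophils and 640 in dendritic cells (1.58-fold), brighter in dendritic cells too, although 1 of the 4 probe sets of Mcm7 lay at 0.66 on the eosinophil side. The Mcm4 value came from a probe set with the suffix x, and the other one stood 1.10-fold apart (1016 units in eosinophils and 1120 in dendritic cells). Mcm3 gave 261 units in eosinophils and 234 in dendritic cells, 1.11-fold apart, and its side turned under 6 of 10 alternatives. A second probe set of Mcm6 stood at only -0.09, with 143 units in dendritic cells. Cdc6, which loads the helicase onto origins, gave 85.3 units in eosinophils and 177 in dendritic cells, at least 1.31-fold brighter in dendritic cells but within the range of background. Geminin (Gmnn), which blocks relicensing, stood apart from the other 7 genes with 836 units in eosinophils against 180 units in dendritic cells, 4.63-fold brighter in eosinophils. Its dendritic cell signal lay within the range of background, so that fold may be a lower bound.

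Among the fork genes, 7 of the 8 measured were brighter in dendritic cells, as they were under each of the 5 scaling alternatives; with the mean of all probe sets it was 6 of 8, and with the second brightest probe set 2 of 4. The sliding clamp Pcna gave 2424 units in eosinophils against 7955 units in dendritic cells, 3.28-fold brighter in dendritic cells. The flap nuclease Fen1, which trims Okazaki fragments, gave 4193 units in eosinophils and 13961 in dendritic cells, 3.33-fold, and its dimmer probe set (99.0 units in eosinophils and 279 in dendritic cells) lay on the same side. The brighter Fen1 probe set also has the suffix x. The single-strand binding protein split by subunit: Rpa2 gave 403 units in eosinophils and 958 in dendritic cells, 2.38-fold brighter in dendritic cells, and Rpa1 gave 1908 units in eosinophils and 844 in dendritic cells, 2.26-fold brighter in eosinophils. A second probe set of Rpa2 pointed the other way, at 0.76 on the log2 scale, while both probe sets of Rpa1 were on the eosinophil side. The primase Prim1 gave 254 units in eosinophils and 413 in dendritic cells (1.63-fold), the clamp loader subunit Rfc4 gave 387 units in eosinophils and 600 in dendritic cells (1.55-fold), and the ligase Lig1 gave 305 units in eosinophils and 383 in dendritic cells (1.26-fold), each brighter in dendritic cells. The polymerase subunit Pola1 gave 42.3 units in eosinophils and 193 in dendritic cells, within the range of background in dendritic cells, at least 1.43-fold (-2.19 on the log2 scale with the floor at the 25th percentile), and Rfc3 lay under the floor on both arrays.

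The supply of deoxynucleotides was led by Rrm2, the ribonucleotide reductase subunit that limits the enzyme outside S phase. Its brightest probe set gave 360 units in eosinophils against 2715 units in dendritic cells, 7.54-fold brighter in dendritic cells, on a probe set with the suffix x. A second gave 178 units in eosinophils and 771 in dendritic cells, 4.34-fold, and another did not reach the floor on either array, at 112 units in eosinophils and 103 in dendritic cells. The partner subunit Rrm1 gave 132.9 units in eosinophils and 134.6 in dendritic cells, just under the floor on both. Thymidine kinase Tk1 gave 22.0 units in eosinophils and 237 in dendritic cells, at least 1.76-fold brighter in dendritic cells. Thymidylate synthase Tyms was under the floor with 27.5 units in eosinophils and 70.2 in dendritic cells. The dUTPase gene Dut gave 210 units in eosinophils against 112 units in dendritic cells, at least 1.56-fold brighter in eosinophils. Its other probe set stood at 0.03 on the log2 scale, and it turned to the dendritic cell side on the spike scale.

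Of the genes of G2 and mitosis, those at least 2-fold apart as reported were brighter in dendritic cells. Topoisomerase Top2a, which untangles chromosomes, gave 17.7 units in eosinophils against 633 units in dendritic cells, at least 4.70-fold, but its second probe set did not reach the floor on either array, at 91.0 units in eosinophils and 41.8 in dendritic cells. Survivin (Birc5), of the chromosomal passenger complex, gave 5.65 units in eosinophils and 475 in dendritic cells, at least 3.53-fold on its single probe set. Cyclin A2 (Ccna2) gave 112 units in eosinophils and 277 in dendritic cells, at least 2.06-fold, but only 1.08-fold on its other probe set (133.6 units in eosinophils and 145 in dendritic cells, within the range of background). Cdk1 gave 123 units in eosinophils and 218 in dendritic cells, at least 1.62-fold. The proliferation antigen Mki67 did not separate the arrays to that extent, with 474 units in eosinophils against 587 units in dendritic cells, 1.24-fold brighter in dendritic cells. The spindle motor Kif11 gave 246 units in eosinophils and 283 in dendritic cells, 1.15-fold. The motor Kif20a, the phosphatase Cdc25b and the kinase Aurka reached 144, 141 and 137 units in eosinophils and 5.37, 24.7 and 134 units in dendritic cells, all within the range of background or under the floor. The mitotic kinases Plk1 (50.2 units in eosinophils and 12.9 in dendritic cells) and Aurkb (125 units in eosinophils and 39.9 in dendritic cells) and cyclin B2 (Ccnb2, 3.51 units in eosinophils and 69.4 in dendritic cells) were under the floor on both arrays, so no difference could be measured for them at this brightness.

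Of the 5 spindle checkpoint genes, which hold anaphase until chromosomes are attached, 3 were measured and none of these 3 reached 2-fold. Bub3 gave 726 units in eosinophils against 1102 units in dendritic cells, 1.52-fold brighter in dendritic cells, but its other 3 probe sets lay on the eosinophil side, up to 0.89 on the log2 scale. Mad2l1 gave 298 units in eosinophils and 268 in dendritic cells, 1.11-fold apart, and its side turned under 4 of the 5 scaling alternatives. Bub1 gave 112 units in eosinophils and 144 in dendritic cells, within the range of background, a difference of at least 1.07-fold. Bub1b (20.1 units in eosinophils and 14.1 in dendritic cells) and the activator Cdc20 (126 units in eosinophils and 37.4 in dendritic cells), which the checkpoint restrains, were under the floor on both arrays.

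**Figure D2:**
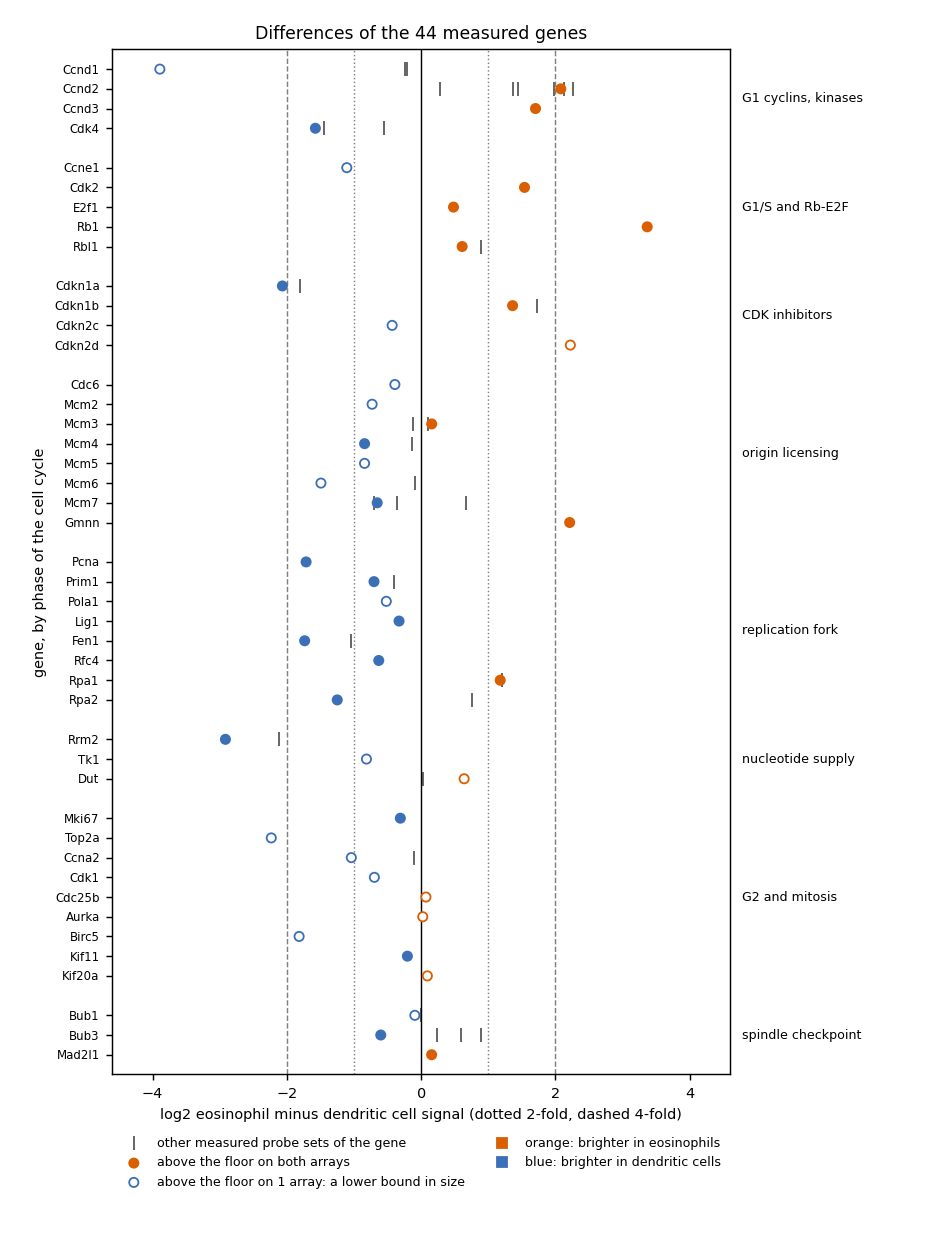
Log2 eosinophil minus dendritic cell signal (horizontal axis) of the 44 measured genes, by phase; filled circles are above the floor on both arrays, open circles on 1 array and so lower bounds in size, and vertical ticks are other probe sets of the same gene. Rb1 (3.37) and Ccnd1 (-3.89) lie furthest out, and 7 of the 8 fork genes lie left of 0.

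Grouped by role, the 13 measured G1 genes had a median log2 difference of 0.61 (8 brighter in eosinophils, 5 in dendritic cells), the 19 synthesis genes -0.70 (4 in eosinophils, 15 in dendritic cells) and the 12 mitotic genes -0.26 (4 in eosinophils, 8 in dendritic cells), beside 0.16 over all measured genes. The synthesis median was negative under all 11 alternatives, between -1.37 and -0.11, whereas the G1 median turned to -0.43 when the arrays were centred on spike controls, a scale on which the median of all genes was -0.63. The mitotic median was negative under the 11 alternatives too, between -1.30 on the spike scale and -0.01 with the second brightest probe set (3 genes measured). Under median, quantile, loess and spike scaling all 10 measured mitotic genes were brighter in dendritic cells and 0 in eosinophils. Kif20a and Cdc25b, on the eosinophil side as reported, had no value under these scalings, and Aurka and Mad2l1 turned. The median of all genes on these scales was -0.06, 0.05, 0.01 and -0.63. The spread between probe sets of a gene, pooled over 1766 genes with 4402 probe sets that reached the floor in both populations, had an SD of 0.73 on the log2 scale, which is a disagreement of probes and not of animals. Among 19 of the genes with 2 or more measured probe sets, all probe sets of 15 lay on the same side; the exceptions were Mcm3, Mcm7, Rpa2 and Bub3.

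Other genes of the replication machinery had a median on the opposite side of 0 from the synthesis genes, except on the spike scale (-0.40). Of 29 other replication genes with a value, 25 were measured, with a median of 0.28, with 16 brighter in eosinophils and 9 in dendritic cells, or 4 in eosinophils and 24 in dendritic cells on the spike scale (28 measured). At 4-fold the count was 1 for eosinophils and 0 for dendritic cells, beside 5.35% of all measured genes on each side. The smallest subunit of the single-strand binding protein, Rpa3, gave 673 units in eosinophils against 102 units in dendritic cells, at least 4.99-fold, and the maintenance methyltransferase Dnmt1 gave 10358 units in eosinophils and 2652 in dendritic cells, 3.91-fold. Dbf4, the activator of the origin-firing kinase, gave 369 units in eosinophils and 118 in dendritic cells, at least 2.74-fold brighter in eosinophils, while the polymerase subunit Pold1 gave 389 units in eosinophils and 1053 in dendritic cells, 2.71-fold brighter in dendritic cells. The 26 measured of 42 other mitosis genes had a median of 0.04 (negative under 4 of the 5 scaling alternatives, down to -0.82 on the spike scale), and at 4-fold the count was 1 for eosinophils and 0 for dendritic cells. The Cdk-binding subunit Cks2 gave 5434 units in eosinophils against 913 units in dendritic cells, 5.95-fold, and the other probe set gave 3.47 (log2). The cohesion factor Cdca5 (125 units in eosinophils and 524 in dendritic cells, at least 3.89-fold) and securin Pttg1 (856 units in eosinophils and 2761 in dendritic cells, 3.23-fold) were brighter in dendritic cells, and the cytokinesis motor Kif23 (404 units in eosinophils and 94.2 in dendritic cells, at least 3.0-fold) in eosinophils. Probe sets of Pttg1 ranged from -1.69 to 0.10.

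Of 15 measured partners of Rb1 and E2F and other kinase regulators, 10 were brighter in eosinophils with a median of 0.54, beside 4592 of all 7994 measured genes. None of the 15 reached 4-fold, beside 5.35% of all measured genes on each side. On the spike scale 4 of 17 were brighter in eosinophils with a median of -0.36, where the median of all genes was -0.63. The Cdk-activating cyclin Ccnh (957 units in eosinophils and 256 in dendritic cells, 3.74-fold, although the other probe set gave 0.06), the E2F dimer partner Tfdp1 (4369 units in eosinophils and 1426 in dendritic cells, 3.06-fold), Ccng2 (1403 units in eosinophils and 578 in dendritic cells, 2.43-fold) and Ccng1 (2386 units in eosinophils and 1218 in dendritic cells, 1.96-fold) were the furthest apart, all brighter in eosinophils, although the 3 probe sets of Ccng1 ranged from -0.02 to 0.97. The anaphase promoting complex, the ubiquitin ligase that ends mitosis, had 11 measured genes with a median of -0.12 and none at 4-fold. On the spike scale its median was -1.16, with 10 of 11 brighter in dendritic cells and 2 of them at 4-fold, beside 1153 of all 8147 genes measured on that scale. With the floor at the 25th percentile the median of the complex was 0.08. Anapc5 (2339 units in eosinophils and 7834 in dendritic cells, 3.35-fold) and Anapc2 (215 units in eosinophils and 551 in dendritic cells, 2.56-fold) were brighter in dendritic cells, as was Anapc1 (311 units in eosinophils and 576 in dendritic cells, 1.86-fold), and Cdc26 (674 units in eosinophils and 319 in dendritic cells, 2.11-fold) in eosinophils. The 6 probe sets of Anapc5 ranged from -1.74 to 0.10.

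**Figure D3:**
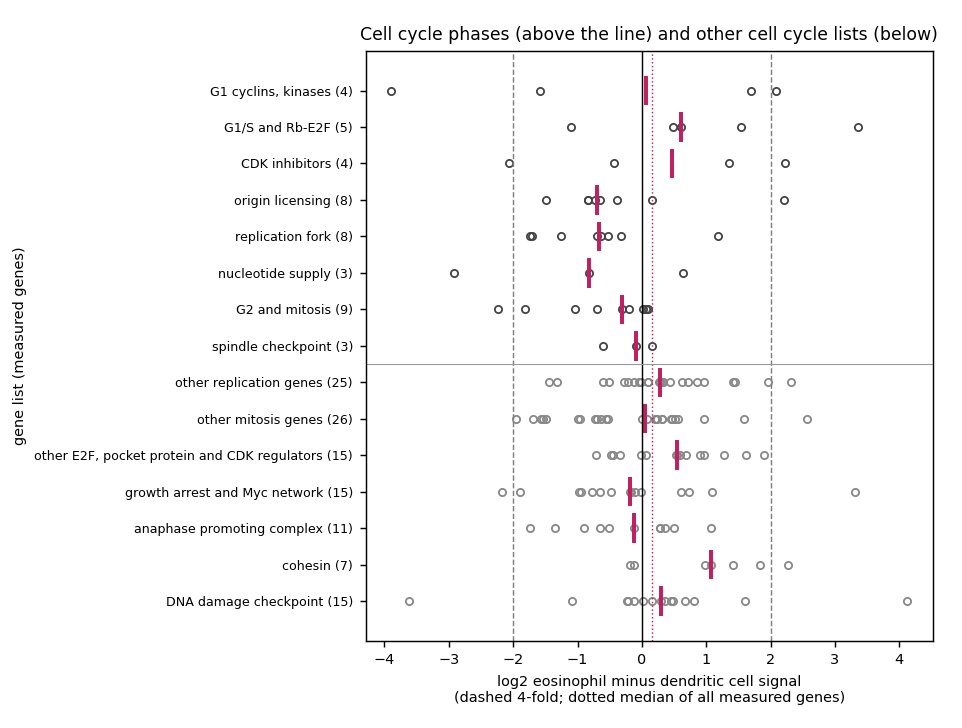
Log2 eosinophil minus dendritic cell signal of the measured genes (circles) of the 8 phases and of 7 other cell cycle lists, with the number measured in brackets; thick bars are list medians and the dotted line is the median of all measured genes (0.16). The medians of origin licensing (-0.69), replication fork (-0.67) and nucleotide supply (-0.82) lie left of that line and that of the other replication genes (0.28) right of it.

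Markers of other gut cells were also read. The summed signal of 7 macrophage markers was 1396 units in eosinophils against 12213 units in dendritic cells, led by Lyz2 (99.2 units in eosinophils and 7813 in dendritic cells) and Cd14 (100 units in eosinophils and 2641 in dendritic cells), with C1qa at 14.7 units in eosinophils and 153 in dendritic cells. Csf1r of the same list gave 763 units in eosinophils and 1121 in dendritic cells, 1.47-fold, and Mertk lay on the eosinophil side with 258 units in eosinophils and 59.1 in dendritic cells, at least 1.92-fold. The 6 T cell markers summed to 629 units in eosinophils and 4550 in dendritic cells, of which Cd8a, a gene that some dendritic cells also express, gave 141 units in eosinophils and 3732 in dendritic cells and Cd3e 336 units in eosinophils and 557 in dendritic cells. The other 4 were under the floor on both arrays. The 8 epithelial markers summed to 1658 units in eosinophils and 848 in dendritic cells, with Krt18 at 870 units in eosinophils and 60.7 in dendritic cells and Epcam at 433 units in eosinophils and 336 in dendritic cells, and 4 under the floor on both. Fabp2 lay on the dendritic cell side, with 79.1 units in eosinophils and 226 in dendritic cells. The 4 progenitor markers summed to 1296 units in eosinophils and 518 in dendritic cells, with Myb at 627 units in eosinophils and 42.8 in dendritic cells and, on the other side, Kit at 110 units in eosinophils and 291 in dendritic cells. The 5 B and plasma cell markers summed to 3067 units in eosinophils and 1123 in dendritic cells, nearly all from Xbp1 (2787 units in eosinophils and 833 in dendritic cells), with the other 4 under the floor on both arrays. Mast cell markers summed to 310 units in eosinophils and 565 in dendritic cells and neutrophil markers to 382 units in eosinophils and 398 in dendritic cells, and both erythroid markers with a value were under the floor. Stroma and endothelium markers summed to 1112 units in eosinophils and 1064 in dendritic cells, in which Pecam1 (647 units in eosinophils and 55.8 in dendritic cells, at least 4.80-fold) and Vwf (8.81 units in eosinophils and 640 in dendritic cells, at least 4.75-fold) lay on opposite sides. The part of these cells in the differences above was not tested.

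**Figure D4:**
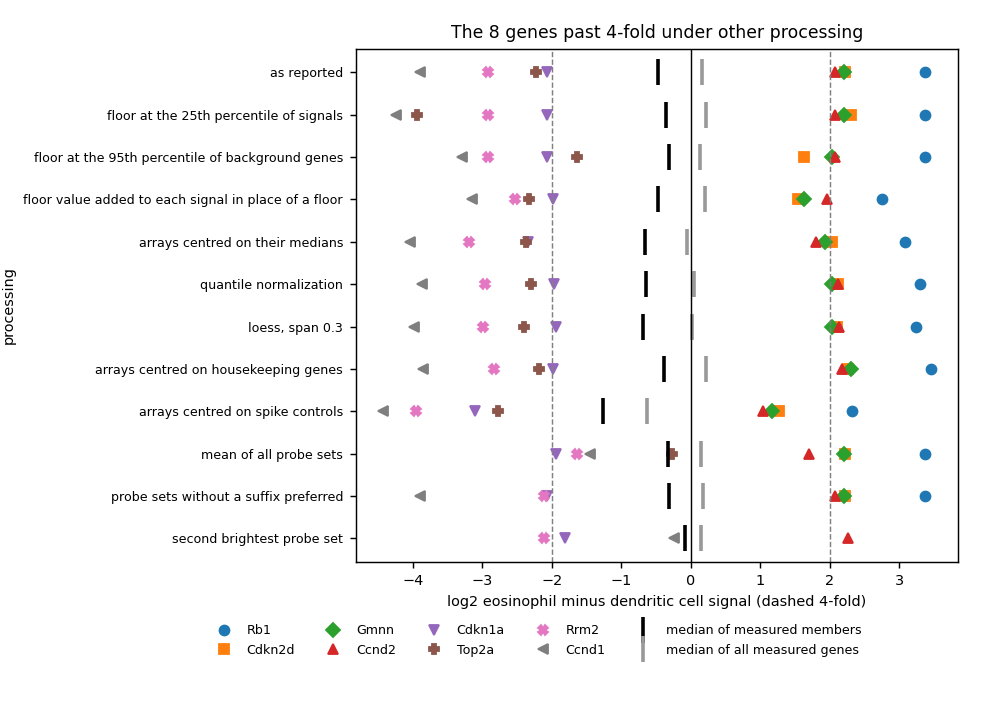
Log2 eosinophil minus dendritic cell signal of the 8 genes at least 4-fold apart (symbols), and the medians of the measured cell cycle genes (black bars) and of all measured genes (grey bars), under each processing setting (rows). None of the 8 genes crosses 0 in any setting, Rb1 stays right of the 4-fold line in each setting that gives it a value, and Ccnd1 and Top2a move to -0.25 and -0.27 at the least. Floors and constant shifts between arrays (1.04 at most) could not turn a gene past 4-fold. Rb1, Cdkn2d and Gmnn have 1 probe set each, so the probe set rules could not turn them.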

How the data were processed

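RNA of sorted eosinophils and dendritic cells was measured on 1 array each. The deposited intensity values, 1 per probe set on a linear scale, were made by the authors with MAS5 (5.0 in the submitters' processing notes); a genome build and detection calls were not used here. The arrays share a global scale, so a whole-population change in RNA content would not show. Precision is limited by the number of arrays.

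The table held 22690 probe sets, 64 of them array controls; 20393 had 1 gene in the platform annotation, 691 had several and 1606 were not listed. Symbols of 20364 probe sets were looked up through Entrez identifiers (RefSeq, GRCm38.p6), and the current symbol was used whether or not it had changed. Signals were floored at the pooled median (134.7 units), then put on the log2 scale; a gene under the floor on both arrays was not measured. A gene was counted at 4-fold, and also at 2-fold. No test was made. The code was checked on simulated signals far above the floor, with planted changes larger than 4-fold. That check does not cover noisy signals near the floor or the spread between probe sets. Python 3.11.15, pandas 2.3.3 and statsmodels 0.14.6 were used.

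The members and lists were chosen with earlier results of these data known. Named are every member, up to 4 genes of each other cell cycle list by size of difference, the sort markers and up to 2 of the brightest genes of each marker list; C1qa, Csf1r, Mertk, Fabp2 and Kit were named besides, after their values were seen. Alternatives were 3 floors, 5 scalings, 3 probe set rules and thresholds of 2-fold and 10-fold.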

Additional observations from a re-analysis of the deposited data

How the results depend on the processing

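Of 437 single-gene values recomputed under 11 alternatives, 384 moved by less than the probe set SD of 0.73 and 53 by more, and no gene past 4-fold changed side. Most settings could not have turned such a gene. A floor cannot change a side, and the largest constant shift between arrays, on the spike scale, was 1.04 (log2). Rb1, Cdkn2d and Gmnn have 1 probe set each, so the probe set rules could not turn them either. The counts of 4 genes at 4-fold in eosinophils and 4 in dendritic cells became 8 in eosinophils and 12 in dendritic cells at 2-fold, and 1 in each at 10-fold. Of all measured genes, 19% were at 2-fold in eosinophils and 15.5% in dendritic cells. A share over all genes was not taken at 10-fold. The count in eosinophils was 1 with the floor value added to each signal, 2 with arrays centred on their medians, 1 with arrays centred on spike controls and 1 with the second brightest probe set (19 genes measured). Over all measured genes these counts were, in the same order, 282 of 7994, 316 of 7928, 161 of 8147 and 123 of 2875. The count in dendritic cells was 9 with the floor lowered to the 25th percentile, 10 on the spike scale, 0 with the mean of all probe sets and 1 with the second brightest probe set. In the same order, 53, 43, 41 and 19 of the cell cycle genes were measured. Over all measured genes the counts in dendritic cells were 665 of 11188, 1153 of 8147, 326 of 7090 and 139 of 2875. The median of -0.48 became -1.27 on the spike scale, where the median of all genes was -0.63, and -0.15 with genes under the floor kept at 0, a setting chosen after seeing the data. Settings for the next counts were also chosen after seeing the data. The 30 genes above the floor in eosinophils became 47 of 54 (46 in dendritic cells) with the floor at the 25th percentile, beside 80.1% of all genes in eosinophils and 77.5% in dendritic cells. With the second brightest probe set, 13 of 29 genes (44.8%) were above the floor in eosinophils and 16 (55.2%) in dendritic cells, beside 49.3% and 44.7% of all genes. Under that rule 11 of 19 cell cycle genes were brighter in dendritic cells. Alternatives that differ in the genes measured (floors, probe set rules) change the counts partly by that; the cause of the other moves was not tested. No paired analysis was possible because each population had 1 array.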

Other observations

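The DNA damage checkpoint list and the growth arrest and Myc network list held larger single differences than the replication genes, and the cohesin list did not. Beside the counts below, 4592 of all 7994 measured genes were brighter in eosinophils, and 5.35% were at least 4-fold apart on each side. Among 15 measured DNA damage checkpoint genes (median 0.30, or -0.71 on the spike scale; 10 brighter in eosinophils, 5 in dendritic cells), the stress-induced Gadd45 genes split. Gadd45a gave 4301 units in eosinophils against 247 units in dendritic cells, 17.4-fold brighter in eosinophils on its single probe set. Gadd45g gave 95.4 units in eosinophils and 1660 in dendritic cells, at least 12.3-fold on the dendritic cell side, and Gadd45b gave 4355 units in eosinophils and 9290 in dendritic cells, 2.13-fold brighter in dendritic cells with probe sets down to -3.37 on the log2 scale. Sesn1, a p53 target, gave 807 units in eosinophils and 266 in dendritic cells, 3.04-fold brighter in eosinophils. Of this list, 1 gene in each direction was at least 4-fold apart.

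Among 15 measured growth arrest and Myc network genes (median -0.19, or -1.21 on the spike scale; 4 brighter in eosinophils, 11 in dendritic cells), 1 gene in each direction was at least 4-fold apart. Foxo3, a forkhead factor that can arrest the cycle, gave 15663 units in eosinophils against 1573 units in dendritic cells, 9.96-fold, with both probe sets on that side. Klf4 gave 500 units in eosinophils and 2264 in dendritic cells, 4.53-fold brighter in dendritic cells, and Foxo1 gave 209 units in eosinophils and 774 in dendritic cells, 3.70-fold, on the same side, while the Myc partner Max gave 2812 units in eosinophils and 1318 in dendritic cells, 2.13-fold brighter in eosinophils. The 7 measured cohesin genes had a median of 1.07, the highest of the 7 other lists, with 5 brighter in eosinophils; on the spike scale the median was -0.02. The cohesin subunits Stag2 (1627 units in eosinophils and 337 in dendritic cells, 4.83-fold) and Smc3 (815 units in eosinophils and 229 in dendritic cells, 3.56-fold), the loader Nipbl (1543 units in eosinophils and 580 in dendritic cells, 2.66-fold) and the regulator Pds5a (698 units in eosinophils and 332 in dendritic cells, 2.10-fold) led it, although a second probe set of Stag2 lay at -1.22 on the dendritic cell side.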
